A study of Rattus norvegicus with 33 samples.

Results

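Elastic fibres give soft tissues their recoil, and the genes described here code for the fibre's parts and for the enzymes that cross-link it. The list held 9 genes: Eln, Lox, Loxl1, Loxl2, Fbln5, Fbn1, Fbn2, Mfap4 and Mfap5. They were found by symbol in the array platform's annotation, using probe sets with 1 gene symbol and, where a gene had several, the one with the highest average signal. Of the 9, 7 had such a probe set, 1 each, out of 18166 genes measured in this way, and all 7 passed the filter on low values that left 10986 genes for testing. Both probe sets of Fbln5 (fibulin-5, which tethers elastin to cells and microfibrils) carry a second gene's symbol, so Fbln5 was not analysed here. Fbn2 (fibrillin-2) was not analysed here either. The lowest value of any of the 7 genes on any array was 7.86, above the filter's floor of 7.645.

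The values come from 33 Affymetrix whole-transcript arrays of total RNA from the fifth caudal mammary glands of both sides. The animals were female rats of the Sprague-Dawley strain, which is outbred, and all received olive oil by stomach tube as vehicle controls of a chemical exposure study, so no group was undosed. The 6 stages were pre-pubertal (postnatal day 21, n = 10), peri-pubertal (day 42, n = 5), pubertal (day 63, n = 5), lactation (day 146, lactation day 28, n = 3), adult parous (day 181, n = 5) and age-matched nulliparous (day 181, n = 5). All animals of a stage were killed on the same day without regard to the oestrous cycle, so stage and collection day cannot be told apart. The series text counts animals as above while the sample notes give 5 animals per stage; here every array counts as a separate animal, and errors of the pre-pubertal group would be too small if its 10 arrays shared animals. A whole gland is a mixture of epithelium, fat, fibrous stroma, vessels and often lymph node, in which fewer cells of a type and less RNA per cell cannot be told apart.

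An elastic fibre has a core of cross-linked tropoelastin, the product of Eln, laid down on a scaffold of microfibrils. Fibrillin-1 (Fbn1) is the backbone of those microfibrils, and the products of Mfap4 and Mfap5 are glycoproteins that associate with them. Lysyl oxidase (Lox) and its relatives Loxl1 and Loxl2 are copper-dependent enzymes that oxidise lysines in tropoelastin and collagen so that cross-links can form; Loxl1 is best known for elastin and Loxl2 for collagens. In the mammary gland fibroblasts around the ducts and the walls of blood vessels are usual sources of these proteins.

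The start regions of Fbn1, Loxl1 and Mfap5 are shown because these were the 3 of the 7 genes matched in the RefSeq promoter table. All 7 genes fell in the lactating gland against the pubertal gland, and 5 of the 7, without Eln and Lox, against the nulliparous gland. After removal of batch terms the array values of the 3 correlated with r of 0.872 to 0.905. Loxl2, which is not shown, correlated with them at 0.879 to 0.979. Each run covers 250 bases before and 50 bases after the gene's annotated start, in the gene's own direction. They are from RefSeq on the GRCr8 build: Fbn1 at chr3:133203341-133203640 on the minus strand, Loxl1 at chr8:67612175-67612474 on the minus strand and Mfap5 at chr4:157399669-157399968 on the plus strand. In the Fbn1 run the 50 bases after that start open with ATG, the letters of a start codon. The annotated Fbn1 start may thus be that of translation, and its run may not be the promoter. Capitals mark CAGAC, a short motif bound by SMAD proteins, which act downstream of TGF-beta, or its reverse complement.
Fbn1: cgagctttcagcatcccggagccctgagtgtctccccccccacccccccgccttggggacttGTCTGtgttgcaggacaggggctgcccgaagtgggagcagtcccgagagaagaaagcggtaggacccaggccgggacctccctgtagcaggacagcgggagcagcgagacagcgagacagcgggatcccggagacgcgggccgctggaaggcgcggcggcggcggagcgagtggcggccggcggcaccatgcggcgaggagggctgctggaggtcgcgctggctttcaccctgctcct
Loxl1: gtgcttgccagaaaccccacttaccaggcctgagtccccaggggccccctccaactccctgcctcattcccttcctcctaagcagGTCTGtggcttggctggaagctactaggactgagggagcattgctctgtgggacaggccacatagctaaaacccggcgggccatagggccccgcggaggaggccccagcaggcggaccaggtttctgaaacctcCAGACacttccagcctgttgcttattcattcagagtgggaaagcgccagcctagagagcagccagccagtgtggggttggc
Mfap5: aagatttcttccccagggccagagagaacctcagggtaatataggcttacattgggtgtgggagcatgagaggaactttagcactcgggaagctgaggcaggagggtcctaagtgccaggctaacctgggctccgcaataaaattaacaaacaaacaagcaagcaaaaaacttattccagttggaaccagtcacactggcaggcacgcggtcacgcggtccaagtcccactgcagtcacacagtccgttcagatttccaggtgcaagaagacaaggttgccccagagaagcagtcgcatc
The motif occurred 1 time in the Fbn1 window and 2 times in the Loxl1 window, and these letters were not in the Mfap5 window. It was present on either strand in 50.1% of the 33469 windows of 300 bases in the table. The GC box GGGCGG (in 33.1% of all windows), the TATA box TATAAA (14.2%) and the AP-1 motif TGANTCA (7.33%), searched on both strands, were in none of the 3. The G and C content was 70.7% for Fbn1, 61% for Loxl1 and 51.7% for Mfap5. No overlap between motifs arose, and the matches are descriptions of the letters only.

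Values are log2 numbers made by the authors with RMA, so a difference of 1 is a doubling, and a level of one gene cannot be set against that of another because each has its own probes. The labels give 3 batches. The first had 18 arrays, none of them from lactation. Batch 2 consisted of the 3 lactation arrays with 4 pre-pubertal, 2 peri-pubertal and 2 pubertal arrays, and batch 3 of 2 parous and 2 nulliparous arrays. Batch 3 was extracted with a Zymo kit, which per the sample notes was used for fattier adult glands, and the rest with a Promega kit. Array medians lay between 6.78 and 6.96. The tissue label was met by luminal epithelium genes on all arrays after day 21, where they averaged 9.40 to 11.24. On the pre-pubertal arrays they averaged 6.66 to 9.63. The lowest, array 2, lay below every array median, so these markers do not show epithelium on it. Skeletal muscle genes averaged up to 10.54 in pre-pubertal, 10.46 in peri-pubertal, 10.09 in lactation and 10.80 in nulliparous arrays. Their stage medians were 7.55, 7.31, 8.90 and 7.83. In pubertal and parous arrays they reached at most 7.39 and 7.61. The markers thus do not show that every gland was free of muscle. Differences below come from 1 limma model with terms for stage and batch (SE from that model, 25 residual degrees of freedom), with Benjamini-Hochberg adjustment over the 10986 genes; "rose" and "fell" mean an adjusted p under 0.05.

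Eln, the elastin gene, was highest in the youngest glands and lowest in the adult ones. On the log2 scale the pre-pubertal arrays ranged from 10.47 to 11.58 with a median of 11.05. The peri-pubertal arrays read 11.01, 10.71, 10.62, 10.83 and 10.63, and the pubertal arrays 10.35, 9.94, 9.96, 9.69 and 9.79. None of the pubertal values reached the lowest of the peri-pubertal values. Eln read 8.37, 8.09 and 8.04 in the lactation arrays. The parous arrays gave 8.83, 8.68, 8.31, 8.20 and 7.86 and the nulliparous arrays 8.80, 8.90, 8.34, 8.23 and 8.07. These 3 adult groups overlapped each other and lay entirely below the pubertal arrays. With batch taken into account the order of levels was pre-pubertal, peri-pubertal, pubertal, nulliparous, parous and lactation. Of the neighbours in that order, peri-pubertal and pre-pubertal (adjusted p = 0.0809), parous and nulliparous (0.91) and lactation and parous (0.496) did not pass the adjusted threshold by limma. For peri-pubertal against pre-pubertal glands the unadjusted p was 0.0295.

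Fbn1, the fibrillin-1 gene, peaked in the peri-pubertal gland. Its pre-pubertal values ran from 10.99 to 12.41 with a median of 11.79, on the log2 scale. Peri-pubertal arrays read 11.72, 12.25, 12.08, 12.78 and 12.36 and pubertal arrays 12.04, 11.59, 11.72, 12.09 and 11.80. The 3 young stages overlapped. In lactation the 3 values were 9.90, 9.98 and 9.95, close to each other. Parous arrays read 9.77, 11.04, 10.25, 8.91 and 8.68 and nulliparous arrays 10.68, 11.50, 10.46, 9.13 and 9.63, where the last 2 of each group are batch 3. Those 4 batch 3 arrays were the lowest of their groups. Batch-adjusted levels ran from peri-pubertal through pubertal, pre-pubertal, nulliparous and parous down to lactation. Neighbours at the top of that order (pubertal against peri-pubertal, adjusted p = 0.375, and pubertal against pre-pubertal, 0.858) and parous against nulliparous (0.687) were not separated by limma.

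Mfap4, which codes for a microfibril-associated glycoprotein, also peaked at the peri-pubertal stage and had its lowest batch-adjusted level in lactation. Its log2 values in pre-pubertal glands ran from 9.75 to 11.16 with a median of 10.48. Peri-pubertal glands read 11.71, 10.92, 11.42, 11.30 and 11.42, and pubertal glands 11.34, 11.01, 11.11, 10.69 and 10.89. Most peri-pubertal arrays lay above every pre-pubertal array, and 1 did not. Lactation arrays gave 9.93, 9.60 and 9.20 for Mfap4. Parous arrays gave 10.38, 10.67, 10.63, 9.19 and 8.95, and nulliparous arrays 10.72, 11.10, 10.62, 9.25 and 8.85. The drop in the last 2 arrays of both adult groups, again batch 3, was wider than the spread within batch 1. By limma no neighbour differed from the peri-pubertal stage down through pubertal, nulliparous, parous and pre-pubertal (adjusted p from 0.361 to 0.933). Some stages further apart did differ. Pubertal glands were above pre-pubertal ones (0.54, adjusted p = 0.00815). Peri-pubertal glands were above pre-pubertal ones (0.000106), and nulliparous (0.0333) and parous glands (0.00577) were below peri-pubertal ones.

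Mfap5, whose product MAGP-2 sits on fibrillin microfibrils, was lowest in lactation, and its adult virgin values overlapped the young ones. Pre-pubertal log2 values ran from 10.03 to 12.01 with a median of 11.48. Peri-pubertal arrays read 10.86, 11.65, 11.07, 12.25 and 11.73, and pubertal arrays 11.23, 10.71, 10.68, 11.26 and 11.21. In lactation Mfap5 was 8.86, 9.42 and 9.05, below every array of every other stage. The parous values were 9.61, 10.60, 10.37, 11.25 and 11.65 and the nulliparous values 10.55, 11.57, 10.26, 11.90 and 12.20. Here the 2 batch 3 arrays at the end of each list were the highest of their group, opposite to Fbn1 and Mfap4. The 5 virgin and parous stages formed a run in which no neighbour differed by limma (adjusted p from 0.22 to 0.984), and lactation stood below them. The ends of that run did differ. Parous glands were lower than pre-pubertal glands (-0.97, adjusted p = 0.00488) and peri-pubertal glands (-1.11, 0.0107) by limma. The other pairs in the run were not called.

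Lox was the cross-linking enzyme gene with the widest range between young and adult glands. Its log2 values were 10.09 to 11.54 in pre-pubertal arrays, with a median of 11.07. Peri-pubertal arrays read 11.09, 11.11, 11.28, 11.80 and 11.27 and pubertal arrays 11.12, 10.33, 10.66, 10.91 and 10.89. These 3 stages overlapped, and no neighbour in their order differed (adjusted p = 0.139 and 0.444 by limma). Lox was 9.57, 8.95 and 9.23 in lactation. It was 7.87, 8.42, 8.33, 8.55 and 9.04 in parous glands and 8.71, 8.87, 8.30, 8.95 and 9.54 in nulliparous glands. All 13 adult arrays lay below all 20 arrays of the young stages. Lox was the member whose batch-adjusted level was lowest in parous glands and not in lactation.

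Loxl1, the relative most tied to elastin, had a peri-pubertal peak and its lowest values in lactation. Its log2 values were 9.91 to 10.88 in pre-pubertal arrays, with a median of 10.48. Peri-pubertal arrays read 10.85, 11.49, 11.22, 11.23 and 11.38 and pubertal arrays 10.93, 10.35, 10.56, 10.69 and 10.41. The peri-pubertal arrays were the high group, with 1 of 5 inside the pre-pubertal range. In lactation Loxl1 read 9.11, 9.39 and 9.01. Parous arrays read 9.80, 10.86, 10.07, 9.94 and 9.80, and nulliparous arrays 10.20, 11.14, 10.08, 9.97 and 10.56. No lactation array reached the lowest array of any other stage. The batch-adjusted levels of peri-pubertal, pubertal, pre-pubertal, nulliparous and parous glands followed each other with no neighbour differing (adjusted p from 0.0989 to 0.99 by limma). Peri-pubertal glands did differ from pre-pubertal (adjusted p = 0.00104), nulliparous (0.0327) and parous glands (0.00163).

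Loxl2 went lower in lactation than at any other stage. Pre-pubertal log2 values were 9.48 to 10.45 with a median of 10.16. Peri-pubertal arrays read 10.45, 10.72, 10.62, 10.85 and 10.70 and pubertal arrays 10.65, 9.86, 10.25, 10.03 and 10.09. Most pubertal arrays lay inside the pre-pubertal range, and 4 of the 5 peri-pubertal arrays lay above it. In lactation the values were 7.996, 7.95 and 7.88, below every other array. Parous arrays read 8.85, 9.26, 8.77, 8.85 and 8.63 and nulliparous arrays 9.44, 9.91, 8.92, 8.80 and 9.66. The order of batch-adjusted levels had gaps between nulliparous and pre-pubertal glands (adjusted p = 0.00438 by limma) and between lactation and parous glands (0.00631).

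**Figure D1:**
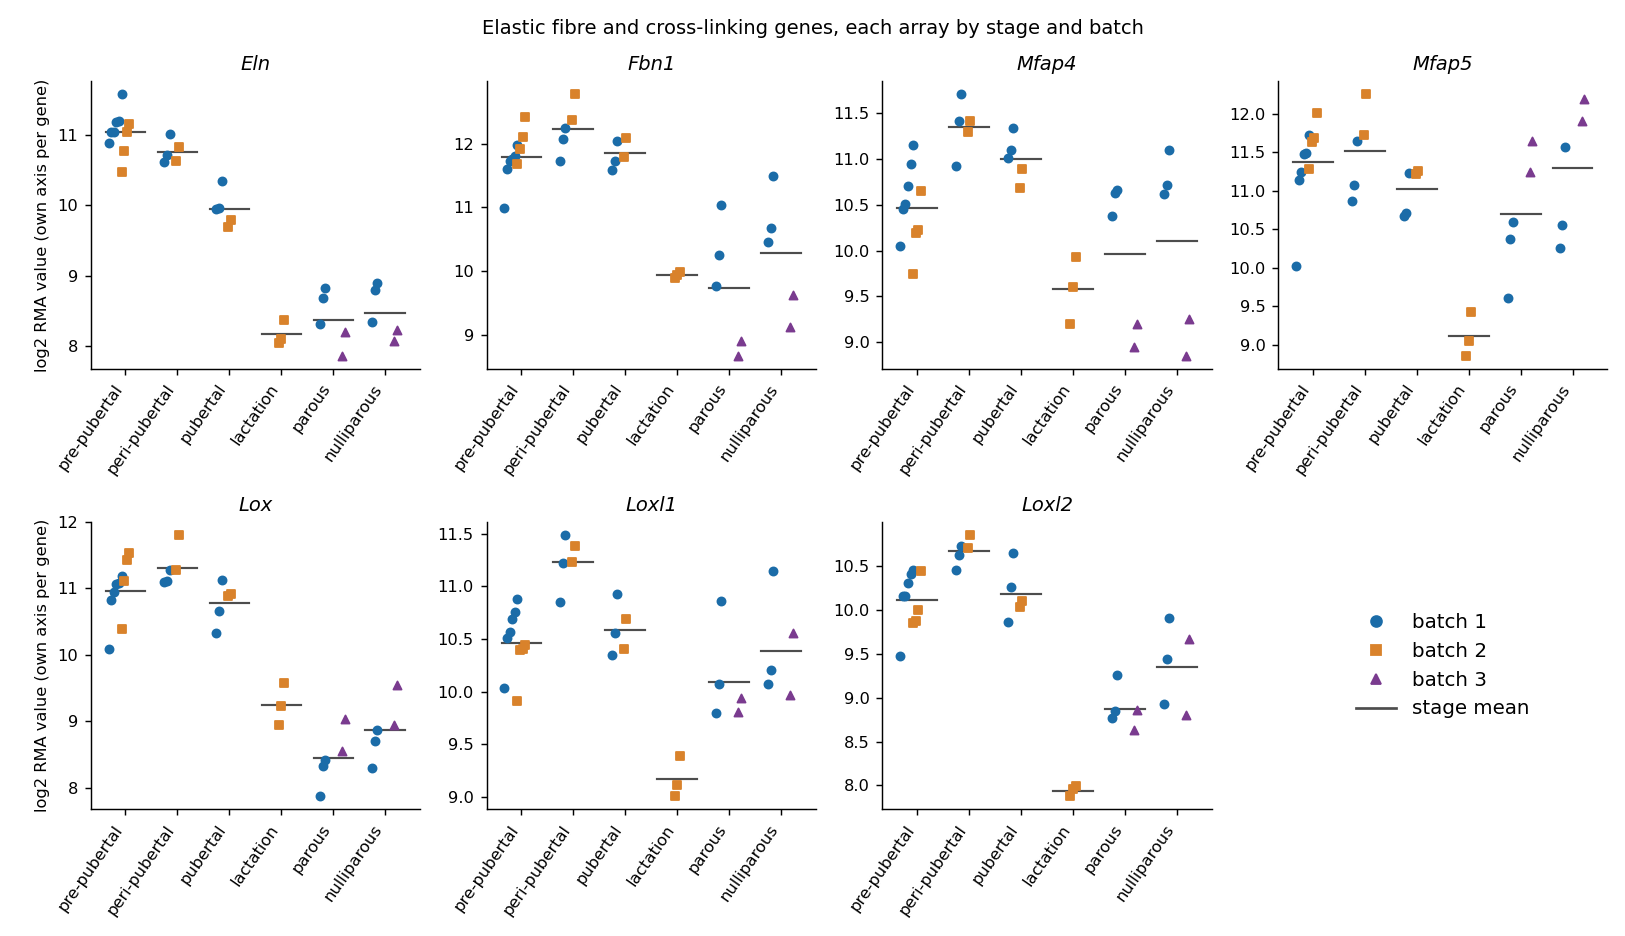
Log2 RMA values of the 7 measured genes on all 33 arrays, by stage (x axis) with 1 point per array and colour and shape for batch; horizontal lines are stage means over all batches, and each gene has its own y axis. Eln and Lox step down between the pubertal and the adult stages, Mfap5, Loxl1 and Loxl2 have their lowest arrays in lactation, and the batch 3 arrays of Fbn1 and Mfap4 lie below and those of Mfap5 above the batch 1 arrays of the same stage.

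Across the 6 stages all 7 genes differed by limma's F test, against 65.9% of all tested genes. Eln had an F of 144.3 (adjusted p = 2.75e-16) and Lox of 64.32 (1.95e-12). Mfap4 had the smallest F of the 7, at 13.27 (6.12e-06).

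Between day 21 and day 42, when the ducts start to grow into the fat pad, the microfibril gene Mfap4 and the cross-linking genes Loxl1 and Loxl2 were higher in the peri-pubertal gland, and Eln was not. This comparison asks what changed at the onset of puberty. Of the 7 genes, 3 rose and 0 fell, against 17.1% of all tested genes that rose and 15.2% that fell. Mfap4 rose by 0.89 ± 0.16 on the log2 scale (1.85-fold, adjusted p = 0.000106), Loxl1 by 0.78 ± 0.17 (1.71-fold, 0.00104) and Loxl2 by 0.56 ± 0.16 (1.47-fold, 0.00816). The median difference of the 7 was 0.44, with 6 positive and 1 negative, and that of all tested genes was near 0. Fbn1 had a difference of 0.44 ± 0.18 (adjusted p = 0.0573), Lox of 0.35 ± 0.18 (0.139), Mfap5 of 0.14 ± 0.22 (0.669) and Eln of -0.28 ± 0.12 (0.0809). The 3 differences had the same direction within both batches. In batch 1 alone they were 0.71 for Mfap4 (adjusted p = 0.0246), 0.61 for Loxl1 (0.106) and 0.44 for Loxl2 (0.185), and in batch 2 alone 1.16, 1.02 and 0.73 (0.0168, 0.00728 and 0.0234). With no batch term Mfap4 kept its difference of 0.89 but missed the threshold (adjusted p = 0.0536), and the other 2 stayed called. With the mean of the luminal epithelium markers as a covariate none of the 3 passed, at 0.60 for Mfap4, 0.54 for Loxl1 and 0.44 for Loxl2 (adjusted p = 0.207, 0.346 and 0.468). With that of the lymphocyte markers Mfap4 passed, at 0.80 (0.00543), and Loxl1 and Loxl2 did not, with Loxl2 at 0.29 (0.311). With that of the adipocyte markers the differences were larger, at 1.18 for Loxl2 and 1.204 for Loxl1, and Lox at 1.07 and Fbn1 at 0.83 passed too.

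Marker genes of cell types changed as well. All 10 luminal epithelium markers rose, all 8 adipocyte markers and all 9 measured lymphocyte markers fell, and 4 of 8 fibroblast markers rose. Of 5 endothelial markers 4 fell, of 7 vascular smooth muscle and pericyte markers 2 fell, and of 4 measured basal and myoepithelial markers 3 rose. The mean log2 value of the lymphocyte list was 6.42 to 8.30 in peri-pubertal arrays and 6.59 to 10.30 in pre-pubertal arrays. The fibroblast list was at 10.28 to 10.90 in peri-pubertal arrays and 9.64 to 10.32 in pre-pubertal arrays, and Lrrc15, a marker of activated fibroblasts, rose by 1.75 ± 0.20. Of 14 other microfibril and fibre assembly genes 6 rose and 0 fell, led by Fbln1 (fibulin-1, 0.99 ± 0.16), Ltbp3 (a binding protein of latent TGF-beta, 0.55 ± 0.10) and Fn1 (fibronectin, 0.78 ± 0.14). Of 11 elastin-degrading enzymes and inhibitors 7 rose and 2 fell. Mmp12, the macrophage elastase, rose by 2.22 ± 0.19 (adjusted p = 2.8e-09), Mmp14, a membrane-bound collagenase, by 1.14 ± 0.14 (6.4e-07) and Ctsk, cathepsin K, by 1.14 ± 0.17 (1.36e-05). Among the other cross-linking genes Bmp1, the protease that activates pro-lysyl oxidase, rose by 0.66 ± 0.12, while Plod2, a collagen lysyl hydroxylase, fell by 0.78 ± 0.16. Of 5 TGF-beta ligands and receptors Tgfb3 was the one called, at 1.499 ± 0.19 higher. Of 11 fibrillar collagens and small proteoglycans 4 rose, by 0.60 ± 0.18 for Lum (lumican), 0.34 ± 0.11 for Ogn and 0.42 ± 0.14 for Col5a2 among them.

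Between day 42 and day 63 Eln fell, and no other member did. It was 0.81 ± 0.14 lower in the pubertal gland (1.76-fold, adjusted p = 0.00383), and the groups did not overlap. The comparison covers the later part of puberty. The other 6 genes were also lower, by 0.35 to 0.65, without passing the test. The count was thus 0 up and 1 down of 7, where 0.719% of all tested genes rose and 0.501% fell. The member of smallest adjusted p after Eln was Loxl1, at -0.65 ± 0.20 (0.0989). Within batch 1 alone the Eln difference was -0.70 (adjusted p = 0.228) and within batch 2 alone -0.99 (0.299), with few arrays in each. With no batch term it was -0.81 (adjusted p = 0.152). Few related genes moved at this step: Tll1, a relative of Bmp1, rose by 1.27 ± 0.30 and Col5a3 and Col5a1 fell by 0.83 ± 0.17 and 0.65 ± 0.15, while 0 of 14 other microfibril genes (4 at an unadjusted p under 0.05) and 0 of 11 elastin-degrading genes and inhibitors (2 unadjusted) were called by limma. The marker lists of fibroblasts, luminal epithelium and adipocytes had 0 calls (2, 0 and 3 unadjusted). Over the whole of puberty, day 63 against day 21, Eln was lower by 1.09 ± 0.12 (adjusted p = 5.29e-08) and Mfap4 higher by 0.54 ± 0.16 (0.00815). These 2 were the members called, where 37.9% of all tested genes were called in either direction.

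In adult virgins Lox and Eln were far below their pubertal levels, and Loxl2 and Fbn1 were lower too. The nulliparous gland of day 181 was set against the day 63 gland, both from rats without a pregnancy. Lox fell by 2.04 ± 0.23 (4.12-fold, adjusted p = 2.12e-06), Eln by 1.35 ± 0.16 (2.55-fold, 2.86e-06), Fbn1 by 0.81 ± 0.23 (1.75-fold, 0.0392) and Loxl2 by 0.77 ± 0.21 (1.71-fold, 0.0284). Of the 7, 0 rose and 4 fell, while 1.88% of all tested genes rose and 2.39% fell. Loxl1 (-0.13 ± 0.22), Mfap4 (-0.37 ± 0.21) and Mfap5 (-0.02 ± 0.29) did not pass, with adjusted p of 0.828, 0.361 and 0.984. The median of the 7 was -0.77 and that of all genes -0.02.

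Lox and Eln were the firmer calls. Within batch 1 alone Lox differed by -2.08 (adjusted p = 0.000859) and Eln by -1.40 (0.00195), while Loxl2 at -0.83 (0.107) and Fbn1 at -0.90 (0.134) kept their size and missed the threshold. When single arrays were left out, Eln and Lox stayed called in 10 of 10 fits, Loxl2 in 6 and Fbn1 in 3. Fbn1 was -1.57 with no batch term (adjusted p = 0.0127) and -0.82 without batch 3 (0.0763). Seen from day 21, Eln fell by 2.44 ± 0.14 in the nulliparous gland (5.44-fold, adjusted p = 1.63e-13) and Lox fell by 2.22 ± 0.21 (4.67-fold, 3.6e-09). In that comparison 29.2% of all tested genes were called in either direction, and in parous against pre-pubertal glands 27.8%. Collagen genes moved with them: 7 of 11 fibrillar collagens and small proteoglycans fell between pubertal and nulliparous glands, led by Col3a1 (-0.98 ± 0.18), Col1a2 (-0.94 ± 0.21) and Col1a1 (-0.87 ± 0.20). The other microfibril genes (0 of 14) and the fibroblast markers (0 of 8) had no calls by limma, with 3 and 1 at an unadjusted p under 0.05. Of the other cross-linking genes Tgm2, a transglutaminase, fell by 0.62 ± 0.13 and Tll1 fell by 1.42 ± 0.33.

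In the lactating gland all 7 genes were lower than in the pubertal gland, by 1.24 to 2.22 on the log2 scale. This comparison sets the end of lactation against day 63, the latest virgin stage present in the same batch. Mfap5 fell by 2.22 ± 0.32 (4.67-fold, adjusted p = 2.89e-06), Loxl2 fell by 2.20 ± 0.23 (4.58-fold, 1.64e-08) and Fbn1 fell by 2.13 ± 0.25 (4.36-fold, 1.71e-07). Lox fell by 1.69 ± 0.25 (3.24-fold, 5.64e-06), Eln by 1.63 ± 0.17 (3.09-fold, 2.14e-08), Loxl1 by 1.34 ± 0.25 (2.53-fold, 8.48e-05) and Mfap4 by 1.24 ± 0.23 (2.37-fold, 7.93e-05). Of all tested genes 23.8% rose and 16.9% fell, so a fall was the less common call. The median of the 7 was -1.69 and that of all genes 0.06. Within batch 2 alone, which holds all 3 lactation arrays and 2 pubertal arrays, the differences ran from -2.12 for Mfap5 and Loxl2 to -1.21 for Mfap4. The largest adjusted p of the 7 in that limma fit was 0.00677, for Mfap4. No left-out array changed a call.

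Most related matrix genes fell too. Of 14 other microfibril and assembly genes 13 fell and 0 rose, led by Fn1 (-2.06 ± 0.20), Ltbp4 (a latent TGF-beta binding protein needed for elastic fibres, -1.24 ± 0.14) and Mfap2 (-2.19 ± 0.30). Of 11 collagens and small proteoglycans 10 fell, led by Col1a1 (-2.95 ± 0.22), Bgn (biglycan, -1.68 ± 0.13) and Ogn (-2.04 ± 0.16). Of 9 other cross-linking and processing genes 6 fell and 1 rose. Pcolce, an enhancer of procollagen processing, fell by 1.81 ± 0.21, Bmp1 fell by 1.24 ± 0.17 and Tll1 fell by 2.35 ± 0.37. Atp7a, which loads copper onto lysyl oxidases, was the gene that rose, by 0.66 ± 0.11 (adjusted p = 1.76e-05); it is named after its value was seen.

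Genes that break down elastin split. Ctsk fell by 2.42 ± 0.25 (adjusted p = 1.29e-08) and Mmp2, gelatinase A, by 1.35 ± 0.18 (1.48e-06), whereas Mmp12 rose by 2.57 ± 0.27 (2.46e-08). In all 2 of 11 rose and 5 fell. Of 5 TGF-beta ligands and receptors 3 rose and 1 fell, with Tgfb2 higher by 1.88 ± 0.22 (adjusted p = 1.6e-07), Tgfbr1 higher by 0.60 ± 0.17 and Tgfbr3 at -0.44 ± 0.13.

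Markers of cell types moved at the same step. Of 8 fibroblast markers 7 fell, with Dpt (dermatopontin) at -1.30 ± 0.13, Dpp4 at -2.59 ± 0.37 and Pdgfra at -1.12 ± 0.17. The list's mean log2 value was 9.01 to 9.47 in lactation arrays and 10.20 to 10.63 in pubertal arrays. Of 10 luminal markers 7 rose (list means of 10.44 to 11.24 in lactation and 9.63 to 10.22 in pubertal arrays), 6 of 8 adipocyte markers fell, 4 of 7 vascular smooth muscle and pericyte markers fell and 1 of 5 endothelial markers fell. Milk protein genes averaged 13.35 to 13.59 in lactation and 9.57 to 11.22 in pubertal arrays. With the luminal, muscle, lymphocyte or adipocyte list mean as a covariate the count stayed at 6 or 7, and all 7 stayed negative. The adipocyte covariate moved the sizes most: Lox was then at -0.85 (adjusted p = 0.0423), Mfap5 at -1.41 (0.0159) and Loxl1, which lost its call, at -0.84 (0.0718). The part of fibroblast content was not tested. Against nulliparous glands, the virgin group nearest in age, which was run in other batches, 5 of the 7 fell and Eln (-0.28 ± 0.20) and Lox (0.35 ± 0.29) did not pass, with 34.9% of all tested genes called in either direction. Against pre-pubertal glands all 7 fell, and 56% of all tested genes were called in either direction.

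**Figure D2:**
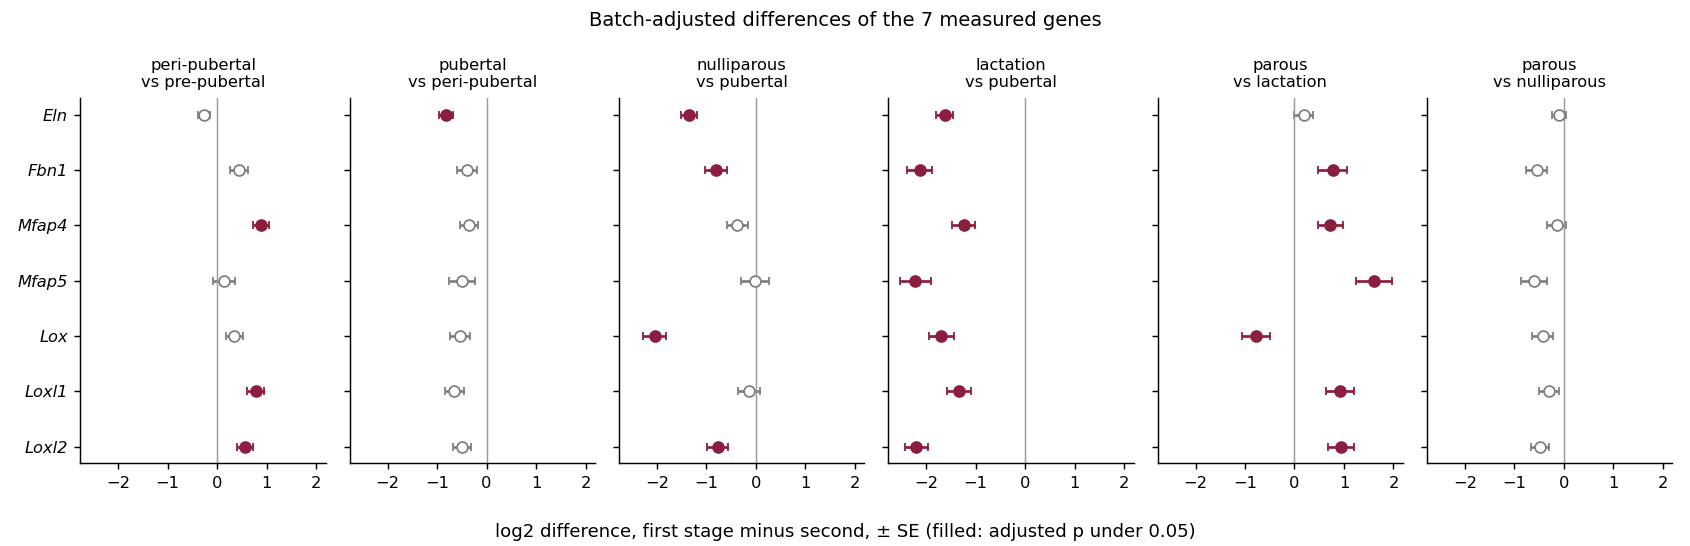
Log2 differences of the 7 measured genes in 6 comparisons, first stage minus second, from the model with stage and batch; bars are SE and filled points have an adjusted p under 0.05. All 7 points are filled and negative for lactation against pubertal glands, and none is filled for parous against nulliparous glands.

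**Figure D3:**
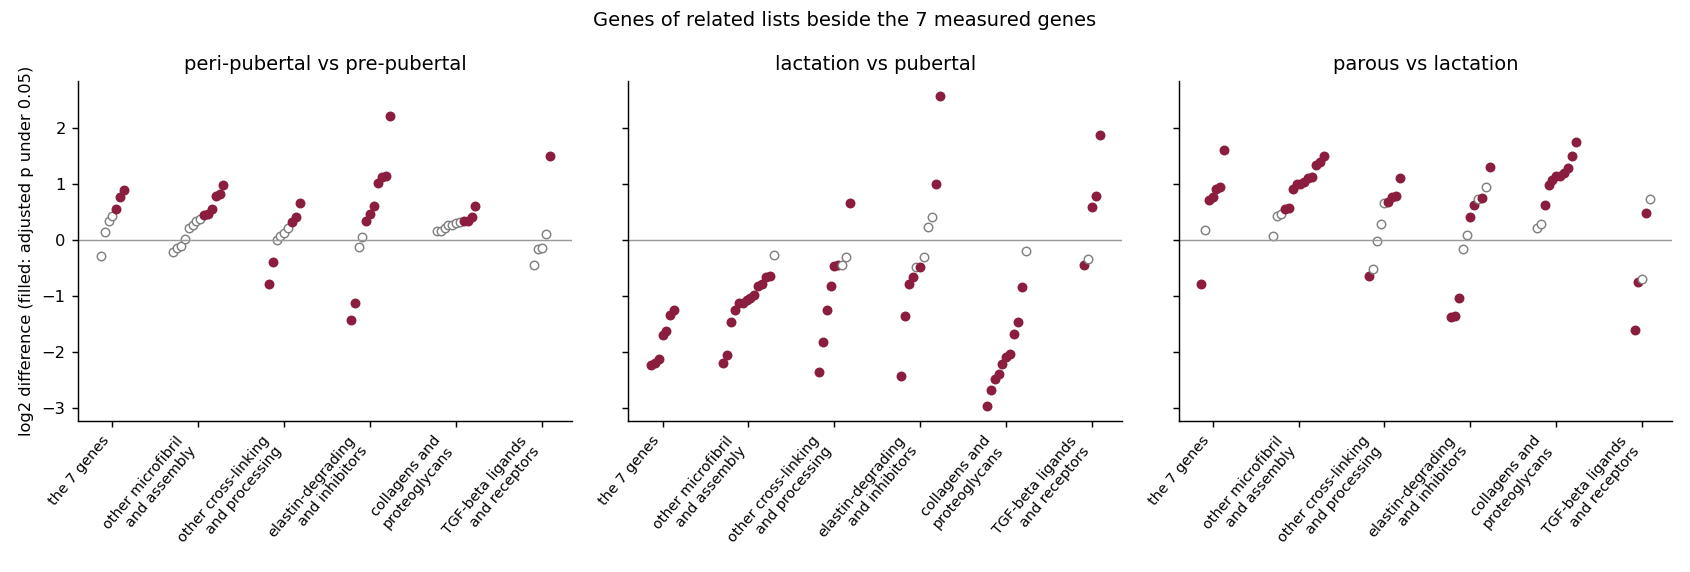
Log2 differences of the 7 genes and of 5 lists of related genes in 3 comparisons, 1 point per gene; filled points have an adjusted p under 0.05. In lactation against pubertal glands 13 of 14 other microfibril genes and 10 of 11 collagens and proteoglycans are filled below 0, and the highest point of the elastin-degrading list is Mmp12 at 2.57.

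After weaning, 5 of the 7 genes were higher in the parous gland than in the lactating gland, Lox was lower and Eln was close to its lactation level. The 2 groups share no batch, so the difference rests on batch terms estimated in the other stages. Mfap5 rose by 1.60 ± 0.37 (3.04-fold, adjusted p = 0.00123), Loxl2 by 0.95 ± 0.26 (1.93-fold, 0.00631), Loxl1 by 0.91 ± 0.28 (1.88-fold, 0.0141), Fbn1 by 0.77 ± 0.29 (1.70-fold, 0.0421) and Mfap4 by 0.73 ± 0.26 (1.66-fold, 0.0326). Lox fell by 0.78 ± 0.29 (1.71-fold, 0.0402), and Eln differed by 0.18 ± 0.20 (0.496). Of all tested genes 12.1% rose and 20.7% fell. The median of the 7 was 0.77 and that of all genes -0.06.

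Without batch 3, Mfap5, Loxl2 and Loxl1 alone stayed called, at 1.60, 0.95 and 0.95, and the count was 3. Lox (-0.77, adjusted p = 0.0539), Fbn1 (0.78, 0.0564) and Mfap4 (0.67, 0.0661) then missed the threshold at similar sizes. With no batch term Fbn1 differed by -0.21 (adjusted p = 0.725), opposite to its batch-adjusted direction, and Mfap4 by 0.38 (0.505). Loxl1 missed the threshold without parous array 2 (adjusted p = 0.0562), and Fbn1 was called in 2 of 8 fits with 1 array left out, Lox and Mfap4 in 4 each. With the adipocyte list mean as a covariate 1 of the 7 was called, Lox at -1.50 (adjusted p = 0.000819), while Mfap5 was at 0.91 (0.105), Loxl1 at 0.48 (0.299) and Loxl2 at 0.33 (0.401). Of 14 other microfibril genes 11 rose, led by Ltbp4 (1.40 ± 0.16), Fn1 (1.51 ± 0.23) and Thsd4 (1.12 ± 0.21), and of 11 collagens and proteoglycans 9 rose. Fibroblast markers (4 of 8) and adipocyte markers (6 of 8) rose and luminal markers (8 of 10) fell. Of 7 vascular smooth muscle and pericyte markers 3 rose, of 9 lymphocyte markers 3 and of 7 macrophage markers 2. The fibroblast list was at 9.01 to 10.26 in parous arrays and 9.01 to 9.47 in lactation arrays, and its lowest parous arrays were those of batch 3.

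At day 181 no member was called between parous and nulliparous glands, which differ in a past pregnancy and lactation at matched age. Of the 7, 0 rose and 0 fell by limma, where 0.0091% of all tested genes rose and 0.0091% fell, 1 gene each. At an unadjusted p under 0.05, 668 of the 10986 genes and 4 of the 7 members passed: Fbn1 (-0.55 ± 0.20, p = 0.0117), Loxl2 (-0.48 ± 0.18, 0.0155), Mfap5 (-0.60 ± 0.26, 0.0263) and Lox (-0.43 ± 0.21, 0.0453), with adjusted p of 0.687, 0.7, 0.769 and 0.813. All 7 differences were negative, with a median of -0.43 and one near 0 for all genes, and the parous and nulliparous arrays overlapped for every gene. Within batch 1 alone all 7 were negative as well, from -0.07 for Eln to -0.60 for Mfap5. Its 3 parous and 3 nulliparous arrays are part of the same comparison, and the genes varied together, so the shared sign is not separate support. Of 11 collagens and proteoglycans 0 were called by limma and 6 passed at an unadjusted p under 0.05, and of 14 other microfibril genes 0 and 3. The lists of other cross-linking genes, elastin-degrading genes, fibroblasts and adipocytes likewise had 0 calls (2, 2, 1 and 1 unadjusted), as did TGF-beta genes and luminal markers (0 unadjusted).

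Batch mattered most for the microfibril genes. In batch 3 minus batch 1, Mfap4 was lower by 1.63 ± 0.19 (adjusted p = 5.72e-09) and Fbn1 by 1.53 ± 0.21 (1.26e-07), Eln was lower by 0.55 ± 0.14, while Mfap5 was higher by 1.26 ± 0.26 (8.41e-05) and Lox by 0.60 ± 0.21. Loxl1 and Loxl2 were not called. These 5 calls stand against 77.4% of all tested genes called for that term. In batch 2 minus batch 1, Mfap5 (0.52 ± 0.19), Fbn1 (0.37 ± 0.15) and Eln (-0.25 ± 0.10) were called, where 56.6% of all tested genes were. The median absolute batch term over all genes was 0.75 for batch 3 and 0.27 for batch 2. Batch 3 and the Zymo kit cannot be told apart. The adipocyte list mean of the batch 3 arrays was 9.43 and 9.96 in parous and 10.11 and 10.46 in nulliparous glands, against 9.89 to 10.19 and 9.68 to 10.31 in batch 1. These list means are not adjusted for batch, and the part of fat content in the batch terms was not tested.

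**Figure D4:**
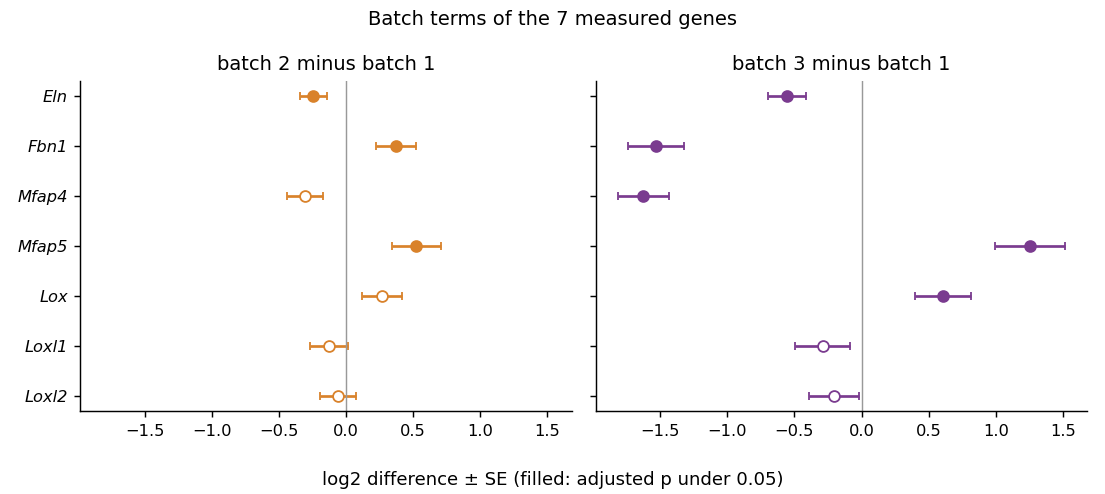
Batch terms of the 7 measured genes from the same model, as log2 differences with SE; filled points have an adjusted p under 0.05. In batch 3 Mfap4 and Fbn1 lie near -1.6 and -1.5 and Mfap5 at 1.26, so that these microfibril genes move in opposite directions.

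Fbn1, Loxl1, Loxl2 and Mfap5 varied together from array to array. After removal of the batch terms, Pearson's r over the 33 arrays ran from 0.381 (Eln and Mfap4) to 0.979 (Loxl2 and Fbn1) over the 21 pairs, with a median of 0.817. Within stage and batch it ran from 0.309 (Eln and Loxl1) to 0.89 (Loxl1 and Fbn1), with a median of 0.559. Fbn1 and Mfap5 reached 0.881 within stage and batch, and Eln was at most 0.511 with any other member. These are descriptions over arrays that share stage means and batches. Pre-pubertal arrays 1 and 9 lay below the fitted value for all 7 genes, with mean residuals of -0.64 and -0.445, and their lymphocyte list means of 10.30 and 10.22 were the 2 highest of that stage. Nulliparous array 3 was likewise below the fit for all 7 (mean residual -0.389), with the highest lymphocyte list mean of its stage, 10.07. Pubertal array 2 was also below the fit for all 7 (mean residual -0.199) with the lowest list mean of its stage, 6.57. Parous array 4 had the highest lymphocyte list mean of all arrays, 10.78, and a mean residual of 0.0183 with 2 genes below the fit, and parous array 3, at 9.82, had one of -0.0543. The part of lymph node content in these deviations was not tested.

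**Figure D5:**
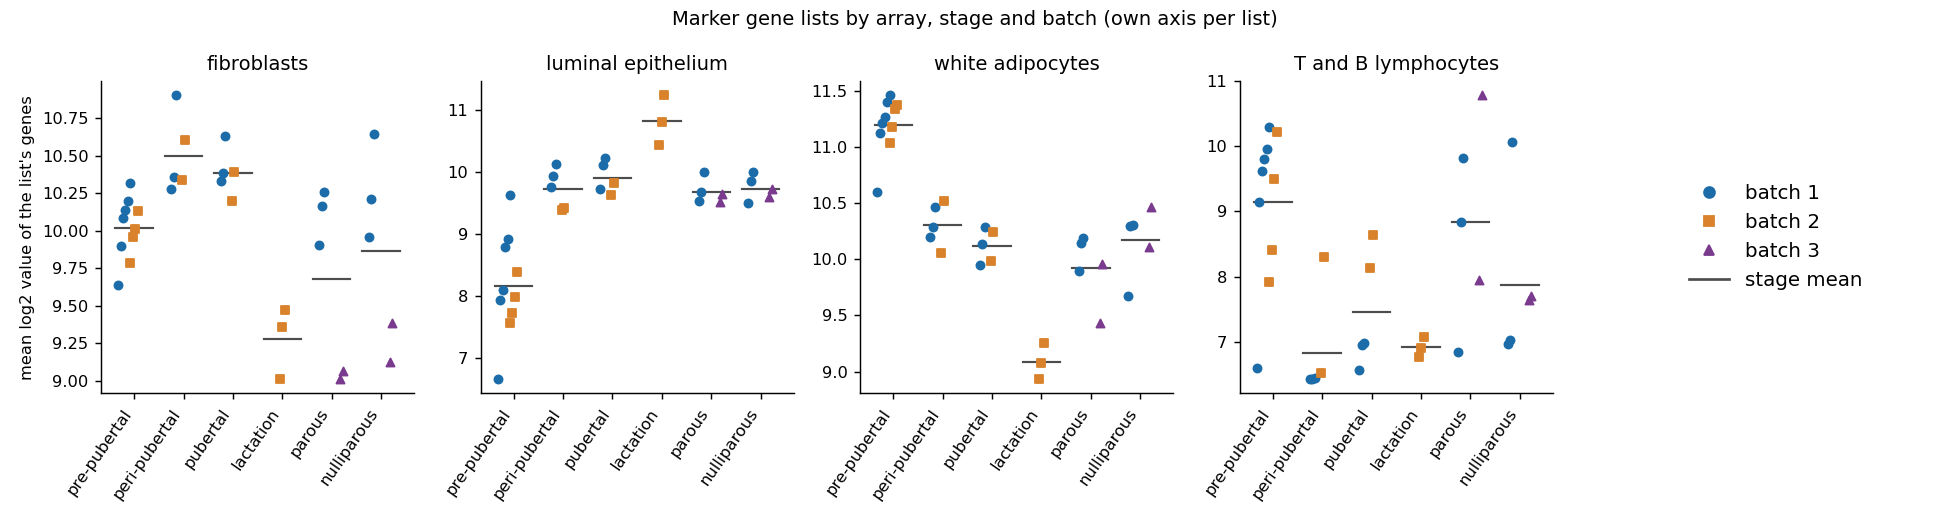
Mean log2 value of 4 marker lists on each array, by stage, with colour and shape for batch and lines for stage means; each list has its own y axis. Fibroblast means are lowest in lactation and in batch 3, luminal means highest in lactation (10.44 to 11.24), and lymphocyte means spread widely within the pre-pubertal, parous and nulliparous stages.

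The tested genes outside the list whose batch-adjusted values were most like each member over the 33 arrays were found by Pearson's r. Stage differences were kept in these values, so r also reflects them. For Fbn1 they were Fstl1, Col1a2 and Col5a2 (0.973, 0.973 and 0.968), and for Loxl2 they were Col5a2, Col1a2 and Col6a2 (0.966, 0.966 and 0.964). Mfap5 was closest to Lrrc17, Fstl1 and Mmp23 (0.95, 0.949 and 0.948). Loxl1 was closest to Dnm1, Cd248 and Fap (0.925, 0.918 and 0.915), of which Cd248 and Fap are known fibroblast and pericyte surface genes. Lox was closest to Rnf144a, Pde7b and Cpz (0.929, 0.928 and 0.914), and Mfap4 to Mmp2, Igsf10 and Htra1 (0.887, 0.875 and 0.865). The genes closest to Eln were Cd93, an endothelial receptor, Abcc9, a channel subunit of pericytes and smooth muscle, and Agt, angiotensinogen (0.953, 0.948 and 0.945). Of 5 endothelial and 7 vascular smooth muscle and pericyte markers, 0 and 0 were called between peri-pubertal and pubertal glands (1 and 2 unadjusted). Between pubertal and nulliparous glands, 0 and 0 were called (1 and 1 unadjusted). Eln fell at both steps. In lactation against pubertal glands, where Eln fell too, 1 and 4 of these markers fell. The part of vessel content was not tested.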

How the data were processed

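Gland RNA of 6 stages was measured on 33 Affymetrix arrays. The deposited log2 values of 36685 probe sets, made by the authors with Affymetrix Expression Console and RMA per the submitters' processing notes, lay between 2.405 and 14.228 with 0 missing. Software version and genome build: not given in the sources used here. Detection calls were not used here, and the number of arrays limits the precision.

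Probe sets with 1 symbol in the platform annotation (18511 of 36685) were used, and genes above 7.645, the median over these probe sets, in at least 3 arrays were tested (10986 of 18166). One limma 3.58.1 model in R 4.3.3 with stage and batch, all 33 arrays and an intensity trend gave moderated two-sided tests of all 15 pairs of stages, of which 6 are reported as the comparisons. Stage and batch came from the labels. Lists of related and marker genes are counted, with up to 3 related genes named per list and comparison by adjusted p. Members, lists and alternatives were chosen with earlier results of these data known. Likeness was ranked as Pearson's r after removal of batch terms. The fit was also tested on simulated data. Windows around annotated gene starts, and motifs in them, were read from RefSeq tables on GRCr8. Figures were drawn with matplotlib 3.10.9.

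The alternatives were no batch term or a random batch block, other filters and normalizations, means of probe sets, no trend, array weights, subsets of arrays, stricter thresholds, marker list means as covariates and each array left out in turn.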

Additional observations from a re-analysis of the deposited data

Results flagged for a closer look

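In 3 of the 35 combinations of gene and stage with 4 to 10 arrays, 1 array lay apart from the others by Dixon's criterion, which flags about 1 in 20 groups by chance. Lox in peri-pubertal array 4 was the highest of its stage at 11.8038, against 11.2805 for the next array. Loxl1 in parous array 2 was the highest at 10.8623, against 10.0712 for the next. Mfap5 in pre-pubertal array 1 was the lowest at 10.0257, against 11.1347 for the next, on an array that lay below the fit for all 7 genes.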

How the results depend on the processing

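All 7 genes differed between the 6 stages under all 15 alternatives and with any of the 33 arrays left out, and lactation against pubertal glands kept 6 or 7 calls under all 18 alternatives and 7 with any of 8 arrays left out. Peri-pubertal against pre-pubertal glands had 3 calls in the model reported. It had 6 with array weights, 0 with a 2-fold minimum or the luminal covariate, 1 in batch 1 alone or with the lymphocyte covariate and 5 with the adipocyte covariate, and 3 to 4 with 1 array left out. Pubertal against peri-pubertal glands had 1 call, against 4 with array weights and 0 with a 2-fold minimum, no batch term, batch 1 alone or batch 2 alone, and 1 to 2 with 1 array left out. Nulliparous against pubertal glands had 4 calls, against 2 at an adjusted p under 0.01, with a 2-fold minimum, in batch 1 alone or with only the groups compared, and 2 to 4 with 1 array left out. The 2-call fits with an array left out were those without pubertal array 1 or 3 or nulliparous array 1 or 3. Parous against lactation glands had 6 calls, against 2 at an adjusted p under 0.01, 1 with a 2-fold minimum or the adipocyte covariate, 3 without batch 3, and 3 to 6 with 1 array left out, with 3 without lactation array 3 or parous array 2. Parous against nulliparous glands had 0 calls, and 1 with array weights (Fbn1). The direction of a called gene reversed 1 time, for Fbn1 in parous against lactation glands with no batch term (-0.21). The causes of these shifts were not tested. The subsets held fewer arrays and also changed which batches or stages were fitted, and the thresholds applied a stricter rule.

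The number of genes called over the whole table moved as well, and the member counts above are not set against it for each setting. It lay between 310 and 5004 for peri-pubertal against pre-pubertal glands (3552 in the model reported), 0 and 1653 for pubertal against peri-pubertal (134), 69 and 1993 for nulliparous against pubertal (469), 897 and 5263 for lactation against pubertal (4472), 790 and 4082 for parous against lactation (3610) and 0 and 26 for parous against nulliparous glands (2). A fit of only the groups compared could not be made for parous against lactation glands, which share no batch. No paired analysis was possible because the labels give animal numbers that stages do not share.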
